A study of Mus musculus with 4 samples.

Results

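Fgf15, a secreted fibroblast growth factor (FGF), and Fgfbp1, a secreted carrier protein of FGFs, were followed in mouse embryonic stem cells of the 46C line, a line with a GFP reporter in the Sox1 gene. Both genes were taken by symbol from the authors' deposited table, in which they are 2 of 1593 genes. The PC group (2 libraries) was grown for 24 h in serum with PD0325901 at 1 µM, an inhibitor of the kinase MEK, together with CID755673, an inhibitor of protein kinase D at a dose the labels leave out. The PD group (2 libraries) received the same serum and the same 1 µM PD0325901 for 24 h, without CID755673. MEK was therefore inhibited in both groups, and all libraries come from 1 cell line. The labels do not tell whether replicate libraries stem from separate cultures, and their spread may be technical.

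FGFs are signalling proteins that bind FGF receptors on the cell surface and act through adaptor proteins on RAS, RAF, MEK and ERK. Most of them are held near the cell that makes them by heparan sulfate, a sulfated sugar chain of the cell surface and matrix. Fgfbp1 binds FGFs stored on heparan sulfate and releases them in a form that reaches their receptors. Fgf15, the mouse counterpart of human FGF19, belongs to the endocrine FGFs, which bind heparan sulfate weakly and travel further. It is best known from the adult ileum, where the bile acid receptor FXR (gene Nr1h4) induces it and from where it restrains bile acid synthesis in the liver. In the embryo it is made in the developing brain among other sites. In mouse embryonic stem cells FGF signalling through ERK promotes exit from the naive state, and MEK inhibitors are used to hold that state.

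Every gene of the table had been selected by the authors on these same 4 libraries, by a fold change of 2 or more and a p under 0.05. The difference between PC and PD thus chose both genes, and it is given for them as a description with no test. Values are reads divided by the authors' size factor of the library (normalized reads), and each difference is PC minus PD of log2(normalized reads + 1). Reads on the 1593 listed genes ranged from 433684 to 683777 per library, the full depth being unknown. The stem cell genes Lin28a, Utf1, Dnmt3l and Tdh, 4 of 10 stem cell markers looked up, were in the table and summed to 16923 and 16307 normalized reads in the 2 PC libraries, against 42593 and 43899 in the 2 PD libraries. The other 6, Pou5f1, Sox2, Nanog, Zfp42, Dppa5a and Esrrb, were not listed and are not analysed here. Over all genes tested by the authors, 3.12% were listed as lower. The sum holds only genes that passed the authors' fold limit, so it does not describe stem cell genes as a set.

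Fgfbp1 lies on chromosome 5 (minus strand, bases 43978858 to 43981779) and Fgf15 on chromosome 7 (plus strand, bases 144896531 to 144900953) in GENCODE M21 on build GRCm38. The submitters' processing notes name the older build mm9, and the table itself holds no coordinates. The RefSeq promoter window of Fgfbp1 (chr5:43981750-43982049, minus strand, build GRCm38.p6) is shown to give the bases around the start of the gene, and no window of Fgf15 is used here. It runs from 250 bases before to 50 bases after the annotated start of a RefSeq transcript, with every match to the searched motifs in capitals.
Fgfbp1 promoter: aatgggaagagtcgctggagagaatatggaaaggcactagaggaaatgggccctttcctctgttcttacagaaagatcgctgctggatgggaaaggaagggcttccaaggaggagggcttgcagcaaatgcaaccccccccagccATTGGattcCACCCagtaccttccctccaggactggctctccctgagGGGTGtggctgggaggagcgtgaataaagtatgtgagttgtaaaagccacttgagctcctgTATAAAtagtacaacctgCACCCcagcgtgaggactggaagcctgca
The motifs searched, on both strands, were TATAAA (known as the TATA box), CCAAT (bound by NF-Y), CACCC (bound by KLF factors), TGANTCA (bound by AP-1) and AGGTCA (a half-site of nuclear receptors). TATAAA began at base 4 after the RefSeq start, whereas the 3 GENCODE starts lie 20, 35 and 746 bases after the RefSeq start, and 13.6% of 32851 RefSeq promoter windows hold it. CCAAT was found once, on the opposite strand at bases -105 to -101, and 37.4% of windows hold at least 1 on either strand. CACCC was found at 3 places, 1 of them on the opposite strand, and 57.5% of windows hold at least 1. The letters of TGANTCA were not in this window (7.81% of windows hold them), nor were those of AGGTCA (16.3%). No match overlapped another. The window had 4 CpG dinucleotides against a median of 7 over all windows, at a GC content of 53.3% against a median of 52.7%.

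Fgf15 was lower in PC in both libraries. It had 555 and 581 normalized reads in PC replicates 1 and 2, against 2312 and 2266 in PD replicates 1 and 2. The PC libraries thus lay close together and far below the PD libraries, with no overlap. Means were 568 ± 18.0 normalized reads in PC and 2289 ± 32.0 in PD (SD, n = 2 each), so that the PC level was 24.8% of the PD level. The log2 difference was -2.01 (SE 0.035 from the spread of the 4 libraries), a 4.03-fold lower mean. Behind these values stood 670 and 488 reads in PC, against 2384 and 2473 in PD. The 95% counting (Poisson) intervals, which cover counting error only, ran from 514 to 599 and from 530 to 634 normalized reads in PC, and from 2220 to 2406 and from 2178 to 2358 in PD. Within each group the 2 intervals overlapped. Less Fgf15 RNA per cell and fewer cells that make it cannot be told apart in such bulk libraries.

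Fgfbp1 was also lower in PC in both libraries, with a wider spread within PC. It had 206 and 275 normalized reads in PC replicates 1 and 2, against 1092 and 1133 in PD replicates 1 and 2. The groups did not overlap, and PC replicate 2 was the higher of the PC pair. Means were 241 ± 48.4 normalized reads in PC and 1112 ± 28.9 in PD (SD, n = 2 each), which puts the PC level at 21.6% of the PD level. The log2 difference was -2.22 (SE 0.21 from the spread of the 4 libraries), a 4.62-fold lower mean. These values rested on 249 and 231 reads in PC, against 1126 and 1236 in PD. The counting intervals of the 2 PC libraries, 181 to 234 and 241 to 313 normalized reads, did not overlap, so the PC libraries differed by more than counting error, while those of the PD libraries, 1029 to 1158 and 1071 to 1198, did overlap. Non-overlap of PC and PD was the rule in this table and held for 99.7% of its genes.

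**Figure D1:**
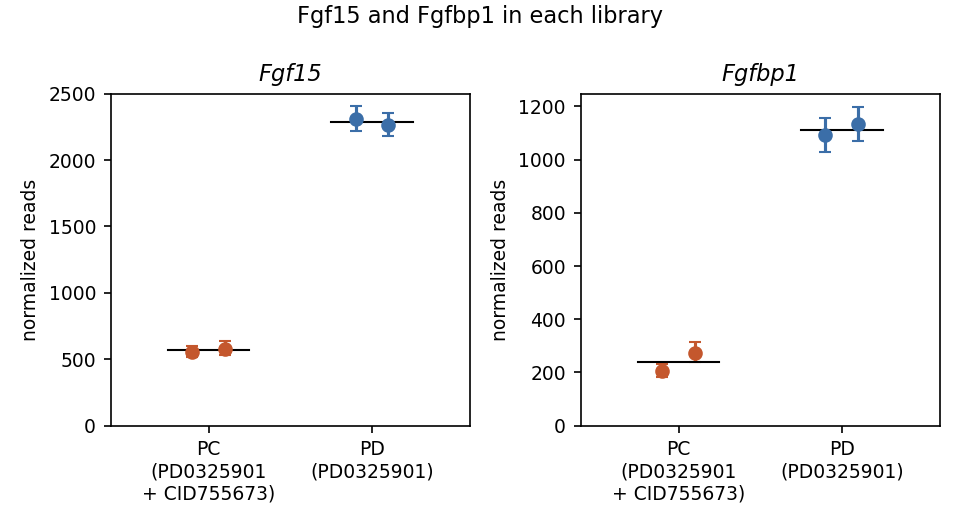
Normalized reads of Fgf15 (left panel) and Fgfbp1 (right panel) in each library of PC and PD, with 95% counting intervals as bars and the group mean as a line. Both PC libraries lie below both PD libraries for each gene, at 24.8% of the PD mean for Fgf15 and 21.6% for Fgfbp1.

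The 2 genes stood at different levels and differed between PC and PD by like amounts. Per kilobase of annotated exon, Fgfbp1 had 91.2 and 121 normalized reads in PC, against 482 and 501 in PD. Fgf15 had 182 and 190 normalized reads per kilobase in PC, against 756 and 741 in PD. Fgfbp1 was below Fgf15 in every library, at 0.502 and 0.640 of its level per length in PC, against 0.638 and 0.675 in PD. On the log2 scale the distance of Fgfbp1 from Fgf15 was -1.42 and -1.08 in PC, against -1.08 and -1.0 in PD, where PC replicate 2 and PD replicate 1 gave almost the same value. The groups overlapped by this measure, so the difference of Fgfbp1 was not separable from that of Fgf15 beyond the spread between libraries. The lengths used, 2263 exonic bases for Fgfbp1 and 3058 for Fgf15, are unions over all GENCODE M21 transcripts. The coding transcript that spans the whole gene is shorter for both, with 1228 bases for Fgfbp1 and 1810 for Fgf15, so the ratio between the genes depends on the length used.

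Both genes were among the more abundant in the table. Fgf15 ranked 86th and Fgfbp1 169th of 1593 by mean level, and the median listed gene averaged 55.1 normalized reads. Of the 980 genes with lower values in PC, Fgfbp1 had the 207th largest difference and Fgf15 the 256th. Among the 361 lower genes with a mean of at least 100 normalized reads they ranked 19th and 28th. Among the 124 lower genes with a mean of at least 500 normalized reads, Fgfbp1 ranked 4th and Fgf15 8th, where the median log2 difference was -1.30.

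**Figure D2:**
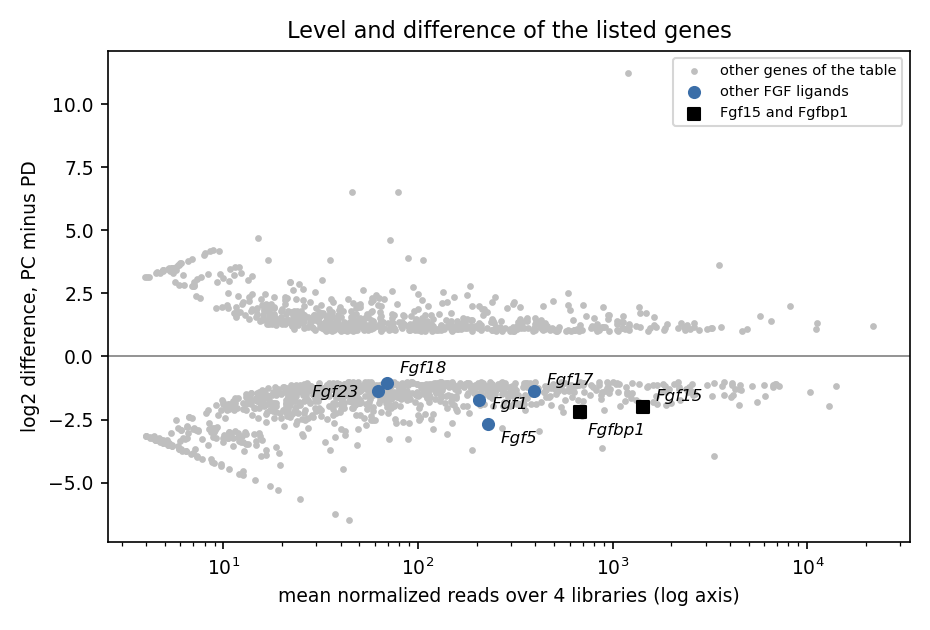
Mean normalized reads over the 4 libraries (log axis) against the log2 difference PC minus PD for the 1593 listed genes (grey), with Fgf15 and Fgfbp1 as black squares and the other listed FGF ligands in blue. The band without points around 0 is the authors' 2-fold limit, and all 7 marked genes lie below it.

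Part of Fgf15 is shared with a gene on the other strand. Exons of the antisense gene Gm26793 cover 761 of the 3058 exonic bases of Fgf15 (24.9%), and those of a second antisense gene, Gm39119, cover 26. No source used here gives the strand setting of the counting, so reads of Fgf15 and Gm26793 may not be separable. Gm26793, named after its values were seen, was in the table with 20.7 and 26.2 normalized reads in PC, against 79.5 and 57.7 in PD. It was lower in both PC libraries (log2 difference -1.50, SE 0.33) without passing (limma, Benjamini-Hochberg adjusted p = 0.204), and its highest library held 82 reads where Fgf15 had 2384. Exons of Fgfbp1 overlap no other gene in GENCODE M21. Gm39119 is not analysed here.

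Of the protein-coding genes that flank both loci in RefSeq order on GRCm38.p6, 1 was in the table. Of the 16 nearest to Fgf15, 10 before it and 6 after it up to the chromosome end, 0 were listed. Its direct neighbour Fgf4, the main FGF of embryonic stem cells, Fgf3 and the cyclin gene Ccnd1 were among them and are not analysed here. Of the 20 nearest to Fgfbp1, the listed gene was Bst1, a cell-surface enzyme of nicotinamide adenine dinucleotide metabolism, the second gene before it. Bst1 had 6.63 and 0 normalized reads in PC, against 43.6 and 23.8 in PD, and missed the threshold (limma, Benjamini-Hochberg adjusted p = 0.415). Its direct neighbours Cd38 and Prom1 were not listed.

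Other FGF ligands in the table were lower in PC without exception. Of 21 ligand genes besides Fgf15, 5 were listed, Fgf1, Fgf5, Fgf17, Fgf18 and Fgf23, all with lower values, while 3.12% of all genes tested by the authors were listed as lower. The limma test with its p adjusted by Benjamini-Hochberg over 31432 genes called 2 of them, where 1.01% of genes tested and 19.8% of listed genes were called lower. The median log2 difference of the 5 was -1.39, against -1.17 over all listed genes. These 5 were selected on the same libraries as Fgf15, so their shared direction is no independent support for it.

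Fgf5, the growth factor of the post-implantation epiblast, had 75.4 and 48.8 normalized reads in PC, against 388 and 401 in PD. It fell by 2.68 in log2 units (SE 0.24; limma, Benjamini-Hochberg adjusted p = 0.0148). Fgf17, a member of the Fgf8 subfamily that patterns the embryo, had 211 and 224 normalized reads in PC, against 611 and 531 in PD. It fell by 1.39 (SE 0.13, limma, Benjamini-Hochberg adjusted p = 0.0157). Of the called ligands Fgf5 thus showed the larger change and Fgf17 the higher level. With the log2 values of each library centred on the median of the listed genes, Fgf17 no longer passed (limma, Benjamini-Hochberg adjusted p = 0.0516).

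The remaining ligands did not pass. Fgf1, a ligand of every FGF receptor and one of those that Fgfbp1 carries, had 122 and 72.6 normalized reads in PC, against 326 and 307 in PD (log2 difference -1.74, limma, Benjamini-Hochberg adjusted p = 0.07). Its PC libraries lay far apart from each other, yet both below PD. Fgf18, also of the Fgf8 subfamily, had 42.3 and 47.6 normalized reads in PC, against 97.9 and 90.7 in PD (log2 difference -1.06). Fgf23, the phosphate-regulating hormone and the other listed endocrine FGF beside Fgf15, had 38.1 and 30.9 normalized reads in PC, against 90.2 and 89.8 in PD (log2 difference -1.36). For Fgf18 and Fgf23 the 2 libraries of a group lay close together, but the errors fitted by limma were 0.23 and 0.26 on the log2 scale. PC and PD did not overlap for either gene, as for 99.7% of listed genes. The third endocrine ligand, Fgf21, was not listed.

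**Figure D3:**
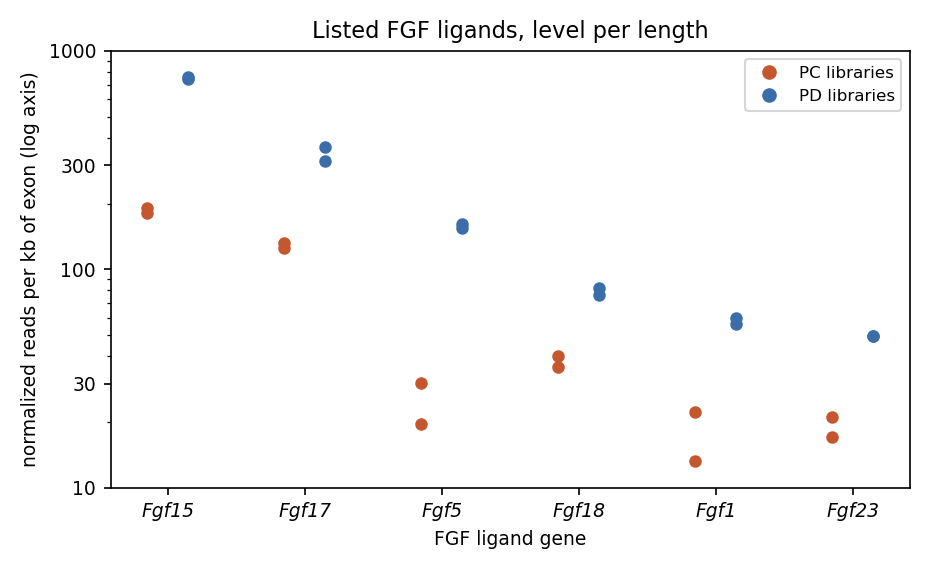
Normalized reads per kilobase of annotated exon (log axis) for the 6 FGF ligand genes of the table, with PC libraries left of PD libraries for each gene. Fgf15 was the highest in every library, at 182 and 190 in PC and 756 and 741 in PD, and the PD libraries of the 6 genes did not overlap one another.

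Per length, Fgf15 was the highest of the 6 listed ligands in every library. The order in PD was Fgf15, Fgf17, Fgf5, Fgf18, Fgf1 and Fgf23, and no 2 neighbours in it overlapped. The lengths are unions over all annotated transcripts, so the order and the shares below depend on them. By normalized reads without length, Fgf15 was also highest, but Fgf1 was above Fgf18 in PD, at 326 and 307 against 97.9 and 90.7. In PC, Fgf15 and Fgf17 kept the first 2 places without overlap, at 182 and 190 against 125 and 132 normalized reads per kilobase. Fgf18 was then above Fgf5, at 35.6 and 40.1 against 30.1 and 19.5 normalized reads per kilobase. Fgf5, Fgf1 and Fgf23 overlapped in PC and could not be ordered. Fgf15 made up 43.7% and 46.1% of the summed level per length of the 6 ligands in PC, against 51.6% and 53.0% in PD. Its share was smaller in both PC libraries, while the sum itself was 416 and 412 in PC, against 1465 and 1398 normalized reads per kilobase in PD.

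No FGF receptor or coreceptor was listed (0 of 8, Klb and Fgfr4, through which Fgf15 acts on the liver, included), nor was any of 18 genes of the adaptors and kinases downstream. Their levels are not analysed here, and a gene outside the table missed the authors' fold limit, their p limit or both. Fgfbp1 was the 1 listed gene among 13 carriers and heparan sulfate proteoglycans, the related carrier Fgfbp3, the syndecans and the glypicans being unlisted. The share listed over all genes tested was 5.07%, at which lists this short hold few listed genes or none.

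Among 17 enzymes that build or trim heparan sulfate, on which FGFs are stored, 3 were listed and 1 passed, where 5.07% of all genes tested were listed and 31.1% of listed genes were called. Sulf1, an extracellular sulfatase that removes sulfate groups from heparan sulfate, had 528 and 535 normalized reads in PC, against 1882 and 1701 in PD. Both PC libraries were close to each other and well below PD. It fell by 1.75 in log2 units (SE 0.10; limma, Benjamini-Hochberg adjusted p = 0.0125). Hs3st1, a sulfotransferase of the same chains, had 17.4 and 26.2 normalized reads in PC, against 64.0 and 61.4 in PD, and did not pass. Hpse, the heparanase that cleaves the chains, was the listed gene with values in the other direction, at 143 and 206 normalized reads in PC, against 37.8 and 77.9 in PD. Its spread within each group was wide, and it missed the threshold (limma, Benjamini-Hochberg adjusted p = 0.275).

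Of the listed genes that respond to FGF and ERK, all but Dusp9 had lower values in PC, where 61.5% of all listed genes were lower. Of 13 feedback inhibitors 5 were listed, 4 lower and 1 higher in PC, of which 2 fell and 1 rose. For comparison, 5.07% of all genes tested were listed, and of listed genes 19.8% were called lower and 11.2% higher. Spry2, an inhibitor of receptor tyrosine kinase signalling, and Dusp6, an ERK phosphatase, fell by 1.11 and 1.08 on the log2 scale (limma, Benjamini-Hochberg adjusted p = 0.028 and 0.0306). Spry2 had 678 and 634 normalized reads in PC, against 1281 and 1565 in PD, and Dusp6 467 and 419 in PC, against 863 and 1015 in PD. For neither did the groups overlap, as was the case for 99.7% of listed genes. The related Spry4 had 17.4 and 27.4 normalized reads in PC, against 101 and 188 in PD, and Dusp4 had 101 and 89.2 in PC, against 176 and 238 in PD; both missed the threshold. Dusp9, another phosphatase of ERK, rose, with 29498 and 31514 normalized reads in PC, against 13548 and 12741 in PD, a log2 difference of 1.21 (SE 0.085, limma, Benjamini-Hochberg adjusted p = 0.0132). It was by far the most abundant gene of these lists. Of 12 transcription factor genes that ERK activates 2 were listed: Myc fell by 1.53 (limma, Benjamini-Hochberg adjusted p = 0.0277) and Fosl1 did not pass. Myc, a growth regulator, had 169 and 190 normalized reads in PC, against 453 and 599 in PD. Fosl1, a subunit of AP-1, had 34.8 and 32.1 in PC, against 92.1 and 130 in PD, so its groups did not overlap either. Spry2, Dusp6 and Myc were not called with the values centred on the median of the listed genes (limma, Benjamini-Hochberg adjusted p = 0.109, 0.118 and 0.0859), and Dusp6 was also not called with a pseudocount of 0.1 (limma, Benjamini-Hochberg adjusted p = 0.0509).

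Of 10 bile acid genes around intestinal Fgf15, 1 was listed, where 5.07% of all genes tested were. Nr1h4, the bile acid receptor FXR, had 41.4 and 23.8 normalized reads in PC, against 59.2 and 84.3 in PD. It lay lower in both PC libraries with a wide spread and missed the threshold (limma, Benjamini-Hochberg adjusted p = 0.682).

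**Figure D4:**
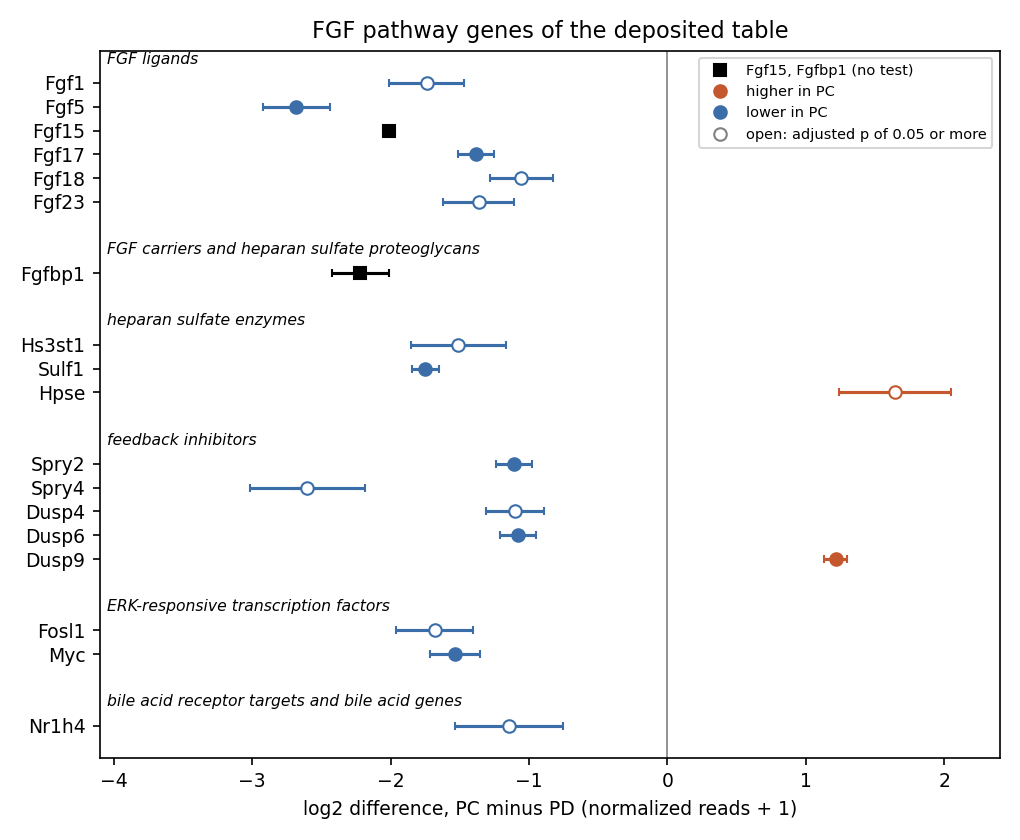
Log2 difference PC minus PD of the 18 listed genes of the FGF lists, grouped by role, with standard errors (limma for tested genes, the spread of the 4 libraries for Fgf15 and Fgfbp1) and filled circles for genes that passed. Of the 18 genes 16 lie below 0, and Hpse and Dusp9 lie above it.

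Over all these lists, 16 of 111 genes besides Fgf15 and Fgfbp1 were listed, 14 lower and 2 higher, where 5.07% of all genes tested by the authors were listed and 61.5% of listed genes were lower. Of these, 7 passed, 6 lower and 1 higher, where 1.57% of genes tested and 31.1% of listed genes were called, and 0.569% and 11.2% were called higher. Of all 1593 listed genes 316 were called lower and 179 higher. The centring on the median of the listed genes called 165 lower and 210 higher, since it assumes that rises and falls balance within the table. It shifted every gene up by 0.37 and left Fgf15 at -1.64 and Fgfbp1 at -1.85 on the log2 scale. With any 1 library left out limma called 0 genes of these lists, and of all 1593 genes it called 0 lower and 33 higher without either PC library. The log2 differences stayed near their values from 4 libraries, between -2.99 and -2.37 for Fgf5, between -1.82 and -1.68 for Sulf1 and between 1.17 and 1.26 for Dusp9. The authors selected all 16 listed genes by p on these libraries, so values kept with a library left out are no independent support.

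Markers of other cell types are given beside the values of Fgf15 and Fgfbp1, where 5.07% of all genes tested by the authors were listed. Of 8 epithelial and keratinocyte markers, the cells in which Fgfbp1 is best known, 1 was listed: Krt5, at 0 and 3.57 normalized reads in PC, against 31.0 and 14.7 in PD. Of 7 enterocyte markers, the cells that make Fgf15 in the adult, Slc5a1 and Cdx1 were listed and moved apart, their sum being 413 and 479 normalized reads in PC, against 300 and 366 in PD. Slc5a1, an intestinal glucose transporter, had 34.8 and 23.8 normalized reads in PC, against 221 and 282 in PD, while Cdx1, a homeobox gene of the gut and the posterior embryo, had 378 and 456 in PC, against 78.5 and 83.4 in PD. None of 6 neural progenitor markers was listed. Of 8 markers of the formative and primed epiblast 6 were listed, all lower, Fgf5 among them, and their sum was 7546 and 7534 normalized reads in PC, against 17964 and 17889 in PD. Of 8 extra-embryonic endoderm markers Gata6 and Sox17 were listed, both higher, summing to 466 and 512 in PC, against 221 and 210 in PD. Most of that sum was Gata6, at 380 and 468 in PC, against 193 and 184 in PD. Sox17 had 86.2 and 44.0 in PC, against 28.1 and 25.7 in PD. Gata3 was the 1 listed of 6 trophoblast markers, with 195 and 133 normalized reads in PC, against 380 and 384 in PD, and Col3a1 the 1 listed of 5 fibroblast markers, with 38.9 and 48.8 in PC, against 89.2 and 114 in PD. Krt5, Sox17, Gata3, Col3a1 and the epiblast marker Lef1 did not pass (limma, Benjamini-Hochberg adjusted p from 0.0893 to 0.743). The other listed markers of this paragraph were called, where 31.1% of all listed genes were. Of these, Gata6 was not called with a pseudocount of 0.1 (limma, Benjamini-Hochberg adjusted p = 0.0618). The epiblast marker Foxd3 was not called with the values centred on the median of the listed genes (limma, Benjamini-Hochberg adjusted p = 0.0576). The part of such cells in the values of Fgf15 and Fgfbp1 was not tested.

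The listed genes with profiles most like each member were found by the Euclidean distance over the 4 libraries, after the log2 values of each gene had been centred on their mean. Nearest to Fgf15 was Zfp750, a zinc finger gene known from epidermal differentiation, at a distance of 0.0898, with 447 and 435 normalized reads in PC, against 1724 and 1761 in PD. Then came the predicted gene Gm4782 (0.102), the actomyosin regulator Limch1 (0.115), the neuronal factor Neurod1 (0.12) and the p53 family gene Trp73 (0.129). The nearest mirror image was Rec8, a cohesin subunit of meiosis, with 12749 and 13345 normalized reads in PC, against 3394 and 3163 in PD. Nearest to Fgfbp1 was Casq2, a calcium-binding protein of heart muscle, at a distance of 0.0979, with 13.3 and 17.8 normalized reads in PC, against 76.6 and 83.4 in PD. It was followed by Gm45363, the neural adhesion gene Chl1, the melanocyte gene Mlana and the pseudogene Gm16478, at 0.118 to 0.131. The mirror image of Fgfbp1 was less close, Gm28496 at 0.253. Several of these rest on few reads, Gm45363 on 3 in each PC library. Fgf15 and Fgfbp1 were 0.328 apart, Fgfbp1 being the 49th nearest gene to Fgf15 and Fgf15 the 16th nearest to Fgfbp1. The difference that selected the genes enters these distances, which are a description over 4 libraries.

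The annotation that the authors deposited with the genes gave Fgf15 and Fgfbp1 few terms in common. They shared 9 process terms, among them transmembrane receptor tyrosine kinase signalling and positive regulation of cell proliferation, of at most 50 terms printed per gene. Fgf15 had 50 process terms, the most printed, so its list may be cut and the shared count too low. Both carried the location term extracellular region. Fgfbp1 was the 1 listed gene with the function FGF binding and had 0 KEGG pathways. Fgf15 had 9 KEGG pathways, among them MAPK, Ras, Rap1 and PI3K-Akt signalling, and each of the other 5 listed FGF ligands carried the same 9.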

How the data were processed

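RNA was sequenced from 4 libraries of total RNA taken with Trizol, per the labels' protocols, and groups follow the titles. The authors deposited 1 table whose library columns hold log2 values. These proved to be log2 of 1 plus reads over a size factor of the library, since undoing the log gave whole reads for 100% of values (tolerance 0.001 reads). Size factors were 1.2070 and 0.8406 for PC, and 1.0313 and 1.0911 for PD. The table also holds the authors' p-value and false discovery rate per gene, per the file headers, whose ratio gives 31432 genes tested. Bowtie 0.12.2 and mm9 appear in the submitters' processing notes without a role, and no source used here names the counter, the annotation or the authors' test.

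limma 3.58.1 (R 4.3.3, trended prior, no replicate block) was fitted to log2(value + 1) of all 1593 genes; a minimum mean of 1 normalized read removed none. Benjamini-Hochberg adjustment ran over all 31432 genes, unlisted genes being taken to have larger p, and genes under 0.05 were called. The spread comes from genes selected on these libraries, which can make it too small. The procedure was also run on simulated data with known changes but no such selection, so that run does not bear on the effect of selection. Counting intervals are exact Poisson at 95%. The reads of replicates differed beyond counting noise (chi-square over its degrees of freedom, 6.57 in PC and 7.03 in PD).

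The members and lists were chosen with earlier results of these data known. Named genes were both members, every listed gene of the FGF lists, the 5 nearest profiles and 1 mirror profile of each member, and listed genes among the 10 protein-coding neighbours on each side. Motif and length data are from RefSeq (GRCm38.p6) and GENCODE M21. The alternatives are a pseudocount of 0.1 or 10, other filters, each library left out, a replicate block and a median centring, and, chosen after seeing the data, voom, reads without size factors and the authors' false discovery rate.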

Additional observations from a re-analysis of the deposited data

How the results depend on the processing

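The log2 difference of Fgf15 lay between -2.04 and -1.98, and that of Fgfbp1 between -2.42 and -2.01, with 1 library left out, the wider range of Fgfbp1 coming from its PC libraries. Centring on the median of the listed genes gave -1.64 for Fgf15 and -1.85 for Fgfbp1, and Fgf15 was at -2.08 on reads without size factors. Pseudocounts and filters moved both by less than their spread. The authors' selection on a 2-fold change left little room for a sign to turn, so unchanged signs say nothing of stability. limma called 495 genes, and 7 of the FGF lists besides Fgf15 and Fgfbp1. These counts were 33 to 61 and 0 to 0 with a library left out (1 higher and 59 or 60 lower without a PD library, 33 higher and 0 lower without a PC library, against 179 and 316 from all 4), where the lone library takes its spread from the other pair, and where 11 to 15 of the 16 listed genes had an unadjusted p under 0.05. They were 53 and 0 on reads without size factors, where limma held 15 of the 16 at an unadjusted p under 0.05, and 1119 and 15 by the authors' false discovery rate. Centring called 3 genes of the FGF lists. voom on the whole reads called 661 and 8. With the replicate number as a block the counts were 1176 and 14. The deviations of same-numbered libraries did not correlate (r = -0.003 over 597 genes with a mean of at least 100 normalized reads). These genes were selected on the same libraries, so the value cannot tell whether same-numbered libraries share a culture or batch. The full depth is unknown, and its effect on genes with few reads was not tested.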

Other observations

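Fgf15 was 1 of 12 listed genes that the deposited annotation gives the function growth factor activity, and all 12 had lower values in PC, where 61.5% of all listed genes were lower. The group was chosen after its values were seen. Besides the 6 FGF ligands it holds, among others, the Nodal antagonists Lefty1 and Lefty2, Bmp8a of the BMP family, Inhbc, which encodes an activin subunit, and the matrix protein gene Thbs4. Thbs4 had 29.0 and 27.4 normalized reads in PC, against 68.8 and 64.2 in PD, and Inhbc 13.3 and 10.7 in PC, against 35.9 and 49.5 in PD. Bmp8a had 53.0 and 17.8 in PC, against 97.0 and 88.0 in PD, with PC libraries far apart. None of these 3 passed (limma, Benjamini-Hochberg adjusted p from 0.199 to 0.718). Lefty1 had 5486 and 5820 normalized reads in PC, against 14448 and 15523 in PD, and Lefty2 had 5590 and 5003 in PC, against 20599 and 20494 in PD. Both fell (log2 difference -1.41 and -1.96, limma, Benjamini-Hochberg adjusted p = 0.0125 and 0.011). Of the 11 genes besides Fgf15, 4 were called lower, where 1.01% of genes tested by the authors and 19.8% of listed genes were. The deposited annotation covers listed genes only, so unlisted genes with this function are not counted.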
